A study of Mus musculus with 6 samples.

Results

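The genes described here encode the subunits of the mitochondrial respiratory chain and of ATP synthase. The list was chosen with earlier results of these data known. Its members were taken by gene symbol: the Nduf genes of the a, b, c, s and v series and Sdha to Sdhd. The Uqcr genes, the Cox4 to Cox8 genes and the Atp5 genes were taken as well. Together the members came to 89 of the 19938 genes tested. The symbol pattern also takes in 7 Ndufaf genes, which encode assembly factors of complex I and not subunits, so 82 genes were subunits or their paralogs. Expression had been measured in colon of 3 mutant mice (VilCre;Ihhflox/flox) and of 3 control littermates labelled wild type, with 1 Affymetrix array per mouse and 1 mutant and 1 control in each of 3 litters. The villin promoter drives Cre in intestinal epithelium, where it deletes the floxed Ihh alleles; Ihh encodes Indian hedgehog, a signal that epithelial cells secrete to the underlying mesenchyme. Mice were 12 days old by the design text and 9 to 12 days old by the growth protocol, and no age per mouse is given. Values are expression on the log2 scale after RMA, a standard normalization for Affymetrix arrays, and each change is mutant minus control with its standard error.

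The respiratory chain passes electrons from NADH and succinate through complexes I, II, III and IV to oxygen and pumps protons across the inner mitochondrial membrane, and ATP synthase uses the returning protons to make ATP. Most subunits are encoded in the nucleus and are transcribed in nearly every cell type, while a few subunits of complex IV have paralogs used in muscle, in cells of the vessel wall, or in testis. In the colon, epithelial cells are known to draw much of their ATP from mitochondrial oxidation of butyrate, a fatty acid made by gut bacteria.

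Array medians lay between 7.10 and 7.14, and correlations between arrays across rows between 0.9855 and 0.9936. Ihh itself read 8.37, 8.22 and 8.22 in mutants and 8.50, 8.54 and 8.68 in controls (change -0.30 ± 0.09, adjusted p = 0.139), from probes that need not lie in the deleted part. The hedgehog targets Ptch1 (-1.44 ± 0.09), Hhip (-2.16 ± 0.13) and Gli1 (-0.78 ± 0.08) fell. Across all genes 330 rose and 421 fell (limma, adjusted p under 0.05), but with all 35557 rows of the table in the fit, named or not, 1 rose and 1 fell. Summed signal of 12 epithelial markers was 41770 to 44750 in mutants and 40590 to 43550 in controls. Of these 12, 1 rose (Krt18, 0.60 ± 0.08, adjusted p = 0.00775) and 0 fell, with 1 lower at an unadjusted p under 0.05. Their list median was 0.012, with 6 above 0 and 6 below. Summed signal of 11 smooth muscle markers was 37310 to 45570 in mutants and 54180 to 55370 in controls. Because whole colon was used, fewer cells of a type and less RNA per cell cannot be told apart.

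No respiratory chain gene passed the test. Of 89 members, 0 rose and 0 fell, where 1.66% of all genes rose and 2.11% fell (3.77% in either direction). These shares hold for the 19938 named genes and nearly vanish with all rows of the table in the fit, where 0 members passed as well. At an unadjusted p under 0.05, 3 members were higher and 3 lower in mutants, against 7.05% and 8.03% of all genes. The changes of the 89 members ran from -0.32 to 0.23, so the largest was 1.25-fold. Every one of them was smaller than the smallest change that passed in any gene (0.37). The 95% interval of the change lay within 0.5 on the log2 scale (1.41-fold) either way for 87 of 89 members, against 88.8% of all genes. The exceptions were Ndufa4l2 and Cox7a1, whose intervals reached -0.51 and -0.54, and the highest upper bound among members was 0.43 (Ndufa3). Changes up to these bounds lie within the intervals of single members.

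Most members stood slightly above 0. Of the 89, 62 (69.7%) had a change above 0, where 52.5% of all genes did. The median change was 0.045 over members and 0.0068 over all genes. Other mitochondrial lists had larger shares above 0, such as 83.1% of mitochondrial ribosome proteins and 84.2% of tricarboxylic acid cycle genes. A large share was not limited to mitochondrial genes. Of 60 cytosolic ribosomal protein genes, a list added after the data were seen, 90% were above 0, with a median of 0.092. Smaller shares were found for glycolysis and lactate genes (40%) and regulators of mitochondrial biogenesis (61.1%). With quantile normalization 54 of the 89 were above 0. By litter, the median change of the members was -0.031, 0.058 and 0.093 for litters 1, 2 and 3, so the litters did not share a direction. In all 3 litters the mutant was higher for 19 members and lower for 4, against 18.8% and 17.1% of all genes. Mutant and control arrays did not overlap for 2 members that were higher, Atp5h and Ndufaf6, and for 3 that were lower, Ndufa4l2, Cox4i2 and Ndufaf5, against 10% and 9.78% of all genes. These non-overlapping members were picked out after their values were seen.

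**Figure D1:**
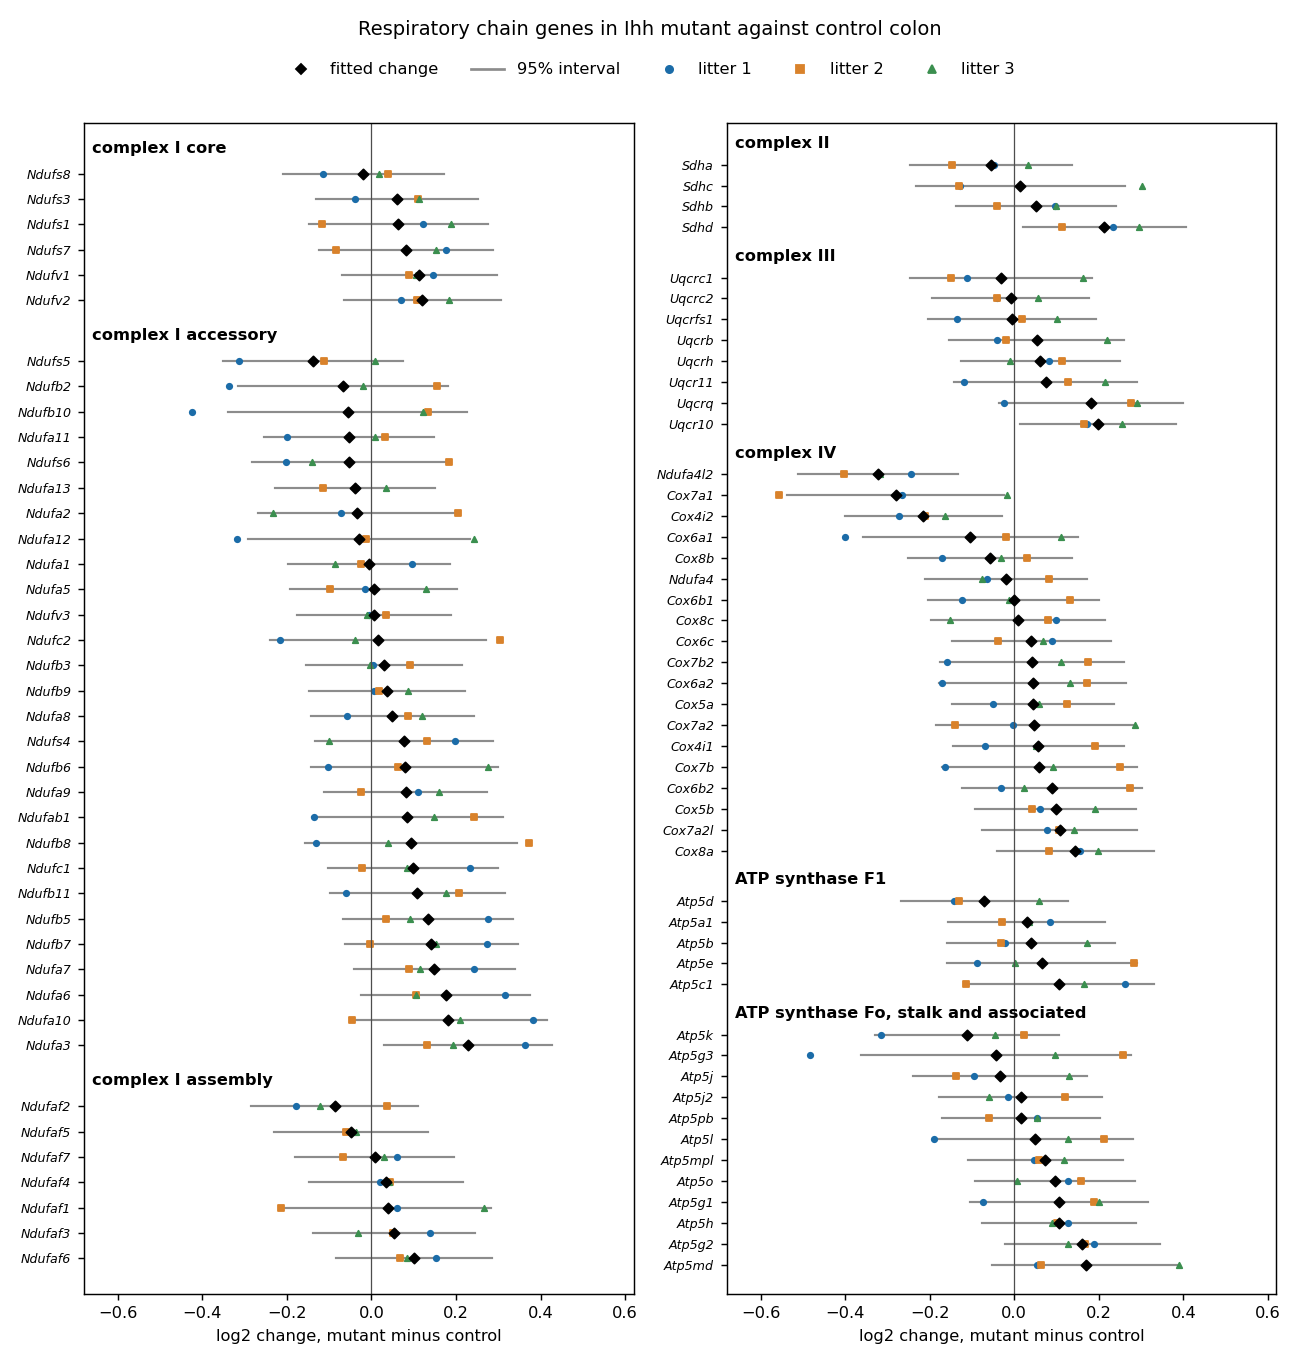
Log2 change, mutant minus control, of the 89 members by complex. Black diamonds are the fitted changes, grey lines their 95% intervals and coloured points the 3 litters; all fitted changes lie between -0.32 and 0.23, and the 3 lowest are the complex IV genes Ndufa4l2, Cox7a1 and Cox4i2.

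Complex I takes electrons from NADH. Its 6 measured core subunits, which carry the flavin and iron-sulfur centres and the quinone site, had a median change of 0.073, with 5 above 0. Ndufv1, which binds NADH, read 10.06, 9.68 and 9.75 in mutants 1 to 3, against 9.92, 9.60 and 9.65 in controls 1 to 3. Its partner in the flavin module, Ndufv2, read 10.55, 10.30 and 10.48 in mutants, against 10.48, 10.19 and 10.29 in controls. In every litter the mutant had the higher value of both, but the groups overlapped and the changes, 0.11 ± 0.08 and 0.12 ± 0.08, did not pass (adjusted p = 0.604 and 0.582). At the other end of the core set, Ndufs8, an iron-sulfur subunit, stood at -0.019 ± 0.082.

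The 28 accessory subunits of complex I, which surround the core, had a median of 0.043 and ranged from -0.14 to 0.23. The highest was Ndufa3, which read 9.92, 9.43 and 9.49 in mutants, against 9.56, 9.30 and 9.29 in controls. The mutant was higher in each litter, and mutant 2 and mutant 3 lay below control 1. Its change of 0.23 ± 0.09 had adjusted p = 0.252. Ndufa10, a matrix-side subunit, stood at 0.18 ± 0.10 (adjusted p = 0.480), with 11.29, 10.90 and 11.10 in mutants and 10.91, 10.95 and 10.89 in controls. Litter 2 did not show that difference. The lowest were Ndufs5 (-0.14 ± 0.09) and Ndufb2 (-0.067 ± 0.107). Both rested mainly on litter 1, where the mutant was lower by -0.31 in Ndufs5 and -0.34 in Ndufb2. Without litter 1, Ndufb2 was at 0.068. Another row of the array, left out here, is annotated to both Ndufs5 and its pseudogene Ndufs5-ps, so the value of Ndufs5 is uncertain.

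The changes of the 7 Ndufaf assembly factors ran from -0.087 (Ndufaf2) to 0.10 (Ndufaf6), with a median of 0.036. Ndufaf6 read 6.57, 6.61 and 6.59 in mutants, against 6.42, 6.54 and 6.50 in controls. These arrays did not overlap, yet the change was small (0.10 ± 0.08, adjusted p = 0.662). Ndufaf5, one of the dimmest 30% of genes, read 6.34, 6.36 and 6.37 in mutants and 6.39, 6.42 and 6.41 in controls. That is a change of -0.048 ± 0.079. Ndufaf3 stood at 0.053 ± 0.082.

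Complex II oxidises succinate and belongs to the tricarboxylic acid cycle as well. Its 4 genes had a median of 0.033. Sdhd, a membrane anchor, read 11.04, 10.68 and 10.96 in mutants, against 10.80, 10.57 and 10.66 in controls. The mutant was higher in each litter, by 0.21 ± 0.08 on average (adjusted p = 0.272), and mutant 2 lay below control 1. Sdhb, the iron-sulfur subunit, and Sdhc, the other anchor, stood at 0.051 ± 0.082 and 0.014 ± 0.107. Sdha, the flavoprotein that holds the catalytic site, was at -0.054 ± 0.083.

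Complex III passes electrons from ubiquinol to cytochrome c. Of its 8 genes, 5 had a change above 0, and the range ran from -0.032 to 0.20. Uqcr10, a small accessory subunit, read 9.39, 9.03 and 9.11 in mutants, against 9.22, 8.87 and 8.86 in controls. It was higher in the mutant of each litter, by 0.20 ± 0.08 (adjusted p = 0.291), with overlap through control 1. Uqcrq, another small subunit, stood at 0.18 ± 0.09 (adjusted p = 0.444), with litter 1 at the opposite sign. The large core proteins Uqcrc1 (-0.032 ± 0.093) and Uqcrc2 (-0.0085 ± 0.0803) were close to 0. The Rieske iron-sulfur protein gene Uqcrfs1 was at -0.0057 ± 0.0860. For Uqcr11 a second row on the array read 0.33 where the row used read 0.074, the widest gap between rows of a member (0.25).

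Complex IV reduces oxygen. Its 19 genes, Ndufa4 and its paralog Ndufa4l2 counted among them, ranged from -0.32 to 0.14 with a median of 0.042. Cox8a, the common form of subunit 8, was the highest, at 10.57, 10.35 and 10.39 in mutants, against 10.42, 10.27 and 10.19 in controls. The mutant was higher in each litter (0.14 ± 0.08, adjusted p = 0.482). Cox7a2l, which helps complexes III and IV assemble into supercomplexes, stood at 0.11 ± 0.08. Cox4i1, the common regulatory subunit 4, was at 0.057 ± 0.087. Cox5a and Cox5b were at 0.045 ± 0.083 and 0.098 ± 0.082.

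The 3 lowest members of all belonged to the paralogs of complex IV subunits whose use is restricted to certain tissues. Ndufa4l2, a paralog of Ndufa4 that hypoxia induces and that cells of the vessel wall express, read 6.88, 6.81 and 6.92 in mutants, against 7.12, 7.22 and 7.24 in controls. Every mutant array lay below every control array. The change of -0.32 ± 0.08 (1.25-fold lower) had adjusted p = 0.0830, but adjusted p = 0.0469 with the litter as a random block and 0.0346 with array weights, the only alternatives under which any member passed. Cox4i2, the oxygen-responsive form of subunit 4, read 7.27, 7.43 and 7.42 in mutants, against 7.54, 7.64 and 7.59 in controls. The groups did not overlap, and the change was -0.22 ± 0.08 (adjusted p = 0.246). Cox7a1, the form of subunit 7a used in heart and skeletal muscle, read 8.76, 8.28 and 8.73 in mutants, against 9.02, 8.83 and 8.75 in controls. It was lower by -0.28 ± 0.11 (adjusted p = 0.280), with litter 2 at -0.56 and litter 3 at -0.018. Without litter 2 it was at -0.14, and without litter 3 at -0.41.

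The common partners of these paralogs did not show the same values. Ndufa4 stood at -0.019 ± 0.083, Cox4i1 at 0.057 ± 0.087 and Cox7a2 at 0.047 ± 0.101. The difference in change within a pair was not tested. The other 5 restricted forms were near 0: Cox6a2 at 0.044 and Cox8b at -0.058, both of striated muscle, and Cox6b2 at 0.089, Cox7b2 at 0.042 and Cox8c at 0.0088, which are known from testis. Cox8b, Cox7b2 and Cox8c were among the dimmest 30% of genes, so their values may hold little signal. Their partners Cox6a1, Cox6b1 and Cox7b stood at -0.10, -0.0019 and 0.059.

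Markers of smooth muscle were lower beside these paralogs, while those of pericytes and striated muscle were mixed. Of 11 smooth muscle markers 7 fell and 0 rose, all 11 had a change below 0, and their median was -0.74, -0.56 and -0.31 in litters 1, 2 and 3. Of 7 pericyte markers 1 fell (Rgs5, -0.51 ± 0.08) and 3 had a change above 0, with a list median of -0.16 and a summed signal of 3451 to 3778 in mutants and 4217 to 4319 in controls. Of 12 skeletal and cardiac muscle markers 1 fell (Actc1, -0.89 ± 0.15) and 7 had a change above 0, with a list median of 0.025. Their summed signal was 2181 to 2598 in mutants and 2702 to 2970 in controls, and 3 of the 12 were in the dimmest 30%. Of 8 fat markers 1 rose (Pck1, which other tissues share) and 4 were in the dimmest 30%. None of these markers read 0 on any array. The part of these cells in the values of Ndufa4l2, Cox4i2 and Cox7a1 was not tested.

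**Figure D2:**
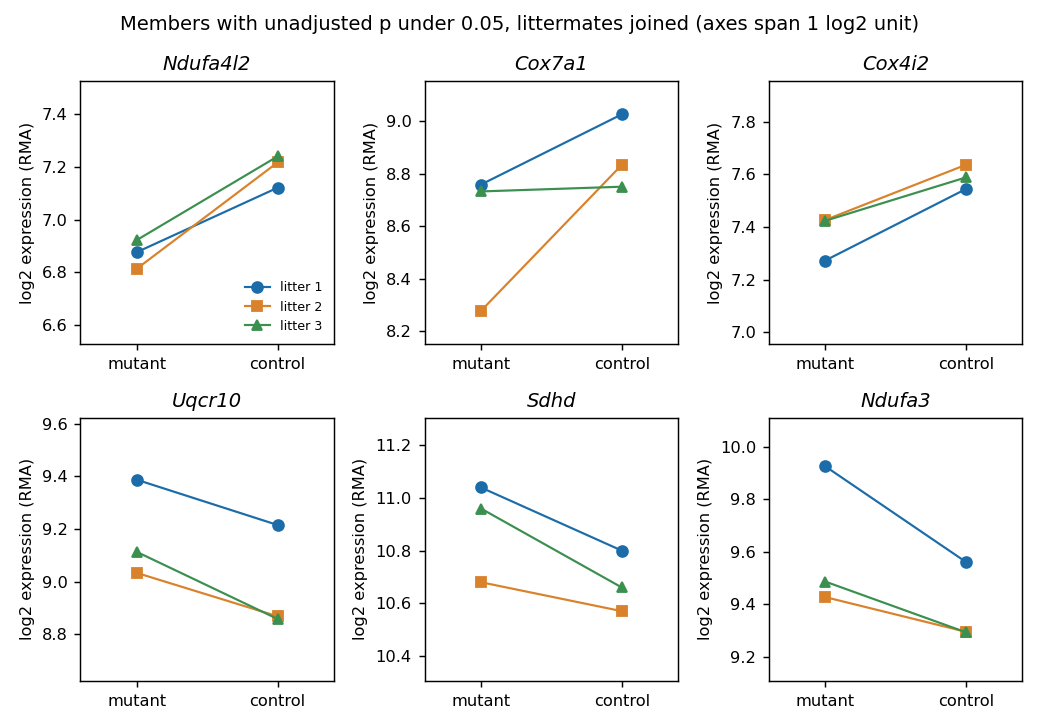
Log2 expression of the 6 members with an unadjusted p under 0.05, mutant on the left and control on the right, with littermates joined. Ndufa4l2, Cox7a1 and Cox4i2 were lower and Uqcr10, Sdhd and Ndufa3 higher in the mutant of each litter; none passed after adjustment.

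ATP synthase consists of the catalytic F1 head and of the membrane part Fo with its stalks. The 5 F1 genes ranged from -0.071 (Atp5d) to 0.10 (Atp5c1), and the catalytic subunit Atp5b read 12.88, 12.96 and 13.13 in mutants, against 12.90, 12.99 and 12.96 in controls. Its partner Atp5a1 stood at 0.030 ± 0.080. The 12 genes of Fo, the stalks and associated proteins had a median of 0.062, and 9 were above 0. Among the genes of the proton-carrying c ring, Atp5g2 read 11.37, 11.03 and 10.99 in mutants, against 11.18, 10.86 and 10.86 in controls. It was higher in each litter (0.16 ± 0.08, adjusted p = 0.410). Atp5g3, which encodes the same mature c subunit, was at -0.043 ± 0.138, the widest error of all members, and at 0.18 without litter 1. Atp5md, a small protein associated with the synthase, stood at 0.17 ± 0.10 and Atp5k, the e subunit, at -0.11 ± 0.09. Without litter 3 Atp5md was at 0.059, and without litter 1 Atp5k was at -0.011.

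Outside the members, fatty acid oxidation was the list of energy metabolism with genes that passed the test. Among 8 further parts of the chain, cytochrome c (Cycs, 0.19 ± 0.10) and cytochrome c1 (Cyc1, 0.030 ± 0.099) among them, 0 rose and 0 fell, with 1 higher and 0 lower at an unadjusted p under 0.05. The 2 measured subunits encoded in mitochondrial DNA, ND3 and COX2, stood at 0.050 ± 0.081 and 0.031 ± 0.086. Of 35 other assembly factors 0 passed, with 1 higher and 0 lower unadjusted. Of 77 mitochondrial ribosome proteins 0 passed, with 4 higher and 0 lower unadjusted, and their median was 0.078. Among 19 genes of the tricarboxylic acid cycle and pyruvate entry 0 passed, with 2 higher and 1 lower unadjusted. Of 21 import and carrier genes 0 passed, with 1 higher unadjusted, and of 7 uncoupling and antioxidant genes 0 passed, also unadjusted.

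In 17 genes of fatty acid oxidation and ketogenesis, 2 rose and 0 fell, and 9 were higher and 0 lower at an unadjusted p under 0.05. Those that rose were Pdk4, which restrains entry of pyruvate into the cycle (1.45 ± 0.12, adjusted p = 0.00142), and the thioesterase gene Acot2 (0.50 ± 0.08, adjusted p = 0.0205). The list median was 0.20, and it was 0.29, 0.054 and 0.27 in litters 1, 2 and 3. Small intestinal enterocyte markers, of which 2 of 15 rose, had medians of 0.71, -0.076 and 0.28 in the same litters. Of 8 colonocyte markers 5 fell and 0 rose, and the other 3 were higher at an unadjusted p under 0.05, so the list was split. The list median was -0.70, and the summed signal was 24900 to 29460 in mutants and 25590 to 27580 in controls. Of 8 neutrophil markers 6 rose and 0 fell, and 6 of the 8 were in the dimmest 30%. Their list median was 0.82, and their summed signal was 709.4 to 941.3 in mutants and 377.6 to 423.6 in controls. The part of these cells in the fatty acid oxidation values was not tested. Of 15 glycolysis and lactate genes 0 passed, with 2 higher and 1 lower unadjusted. Of 18 regulators of mitochondrial biogenesis 0 passed, also unadjusted. The coactivator genes Ppargc1a and Ppargc1b stood at 0.18 ± 0.13 and 0.17 ± 0.08, and Ppargc1a read 0.57 in litter 1 but 0.064 and -0.080 in litters 2 and 3. The factors that bind promoters of respiratory genes were close to 0: Nrf1 at -0.067 ± 0.079, Gabpa at -0.028 ± 0.086 and Esrra at 0.042 ± 0.084. Tfam, which mitochondrial DNA needs for its transcription, was at 0.11 ± 0.08.

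**Figure D3:**
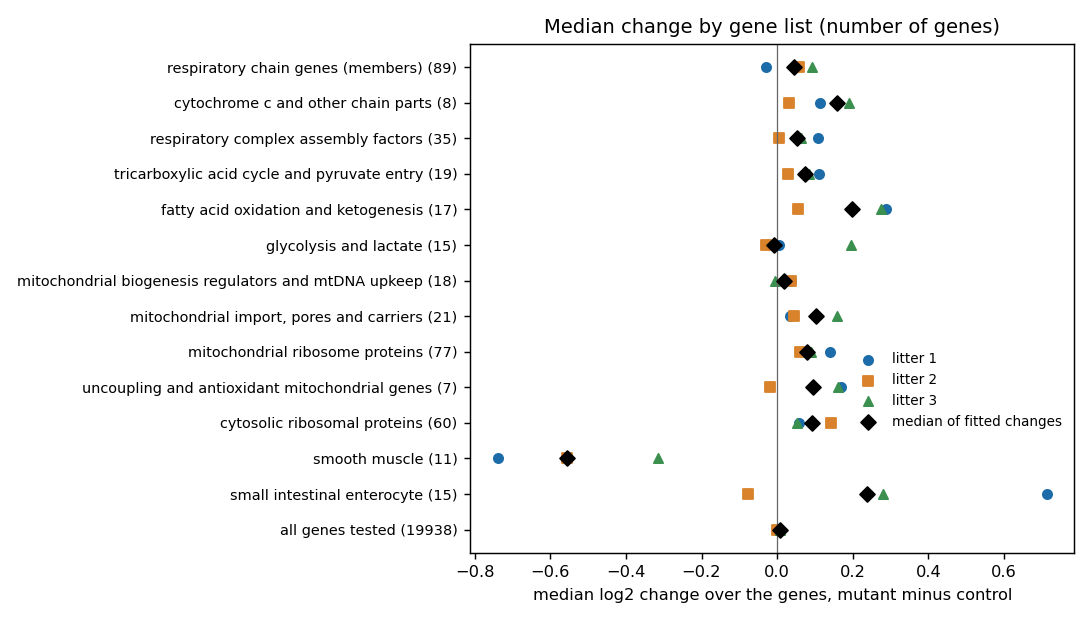
Median log2 change, mutant minus control, of each gene list, with the number of genes in brackets. Black diamonds are medians of the fitted changes and coloured points the medians in litters 1, 2 and 3; the members lie at 0.045, beside 0.20 for fatty acid oxidation and ketogenesis and -0.56 for smooth muscle markers.

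The litter separated more members than the genotype did, by the counts given here. Taken as deviations from each gene's mean over 6 arrays, their median was 0.11 in mutant 1, -0.066 in mutant 2 and 0.013 in mutant 3, against 0.13 in control 1, -0.10 in control 2 and -0.070 in control 3. Both arrays of litter 1 were thus the highest, whatever the genotype. The litter term of the same fit was a joint F test of 2 litter differences. It had an unadjusted p under 0.05 for 28 of 89 members (31.5%), against 7.79% of all genes. The genotype, tested as 1 difference, had it for 6 members, where 7.05% of all genes were higher and 8.03% lower. These tests are unlike, so the counts only describe. After adjustment the litter term passed for 0 members and 0% of all genes, with the smallest adjusted p among members at 0.289 (Uqcr11). Both litter 1 arrays lay above the other 4 for 44 members and below them for 2, against 8.69% and 10.7% of all genes. This comparison was added after the data were seen.

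The 3 members with the smallest p for the litter term belonged to 3 complexes and were picked for that p. Uqcr11, a small subunit of complex III, read 9.16, 8.63 and 8.57 in mutants 1 to 3, against 9.28, 8.50 and 8.35 in controls 1 to 3. Atp5k read 9.71, 9.15 and 9.21 in mutants, against 10.02, 9.13 and 9.26 in controls. Cox6b1, the common subunit 6b of complex IV, read 10.83, 10.35 and 10.29 in mutants, against 10.95, 10.22 and 10.30 in controls. In each, both animals of litter 1 stood apart and the other litters lay close together. By complex, the litter term had an unadjusted p under 0.05 for 13 of 28 accessory and 2 of 6 core subunits of complex I. The counts were 4 of 8 in complex III, 2 of 19 in complex IV, 6 of 12 in Fo and stalks and 1 of 5 in F1. In complex II and the Ndufaf genes they were 0 of 4 and 0 of 7. For the catalytic subunit Atp5b and the complex III subunit Uqcrb both litter 1 arrays were the lowest.

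The litter pattern was not limited to mitochondrial genes. Among 60 cytosolic ribosomal protein genes, a list added after the data were seen, the litter term had an unadjusted p under 0.05 for 23, and both litter 1 arrays were highest for 37. For 77 mitochondrial ribosome proteins the counts were 7 and 12, and for 12 epithelial markers 0 and 0. Mutant and control of a litter, each set against its own group's mean, correlated by 0.59, 0.095 and 0.38 across the 89 members in litters 1, 2 and 3, against 0.013, 0.0052 and 0.061 across all genes. Members share arrays and are not independent points. With no age per litter in the labels, litter, age and handling cannot be told apart. With litter 1, 2 or 3 left out in turn, 0 members passed each time, and 72, 53 and 56 of 89 had a change above 0.

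**Figure D4:**
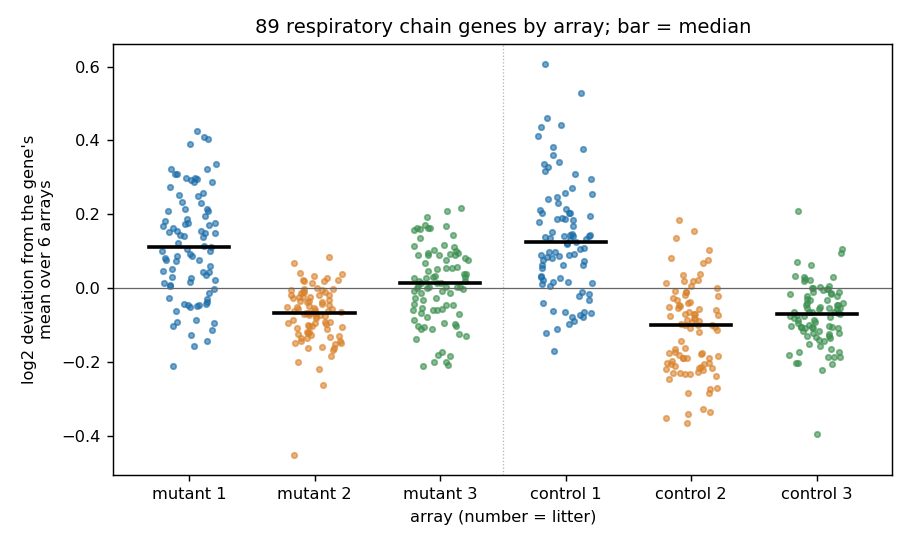
Log2 deviation of each of the 89 members from its own mean over 6 arrays, with mutants on the left and controls on the right, coloured by litter; black bars are medians. Both arrays of litter 1 have the highest medians, 0.11 in mutant 1 and 0.13 in control 1.

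Promoters of the members were searched for the sequence motifs of factors known to act on respiratory genes. Promoter sequences (250 bases before to 50 after the start of transcription) came from RefSeq on GRCm38.p6 and were found for 73 of 89 members, and both strands were read. The NRF1 motif, a palindrome of GCGCA followed directly by TGCGC, occurred in 7 of 73 members (9.59%) and in 1.07% of all genes in the table. CCGGAAGT, the motif of GABPA and other ETS factors, occurred in 5 members (6.85%) and in 4.31% of genes. AAGATGGC, the core of the YY1 motif, occurred in 10 members (13.7%) and in 3.19% of genes, and TCAAGGTCA, the ESRRA motif, in 2 members (2.74%) and in 0.466% of genes. No member held more than 1 of the 4 motifs. Of the 24 that held any, 16 had a change above 0, where 62 of all 89 members did. Among NRF1 motif holders Atp5g2 and Ndufaf4 were above 0, and Atp5k, Cox6a1, Ndufa11, Ndufaf5 and Uqcrc1 below. The 5 holders of the GABPA motif were all above 0, at 0.061 (Ndufs3) to 0.14 (Cox8a), and none passed. Of the YY1 motif holders Atp5j and Ndufs6 were below 0 and the others above. Of the ESRRA motif holders Sdhd was above 0 and Atp5g3 below. A match is a description of these letters and not a bound site.

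For each motif the stretch around it is shown in the member with the largest change among those that hold it, 5′ to 3′ on the gene's strand, with the motif in capitals.
Atp5g2 (NRF1 motif, chr15:102671070-102671099, minus strand): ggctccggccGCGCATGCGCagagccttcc
Cox8a (GABPA motif read on the opposite strand, chr19:7217605-7217632, minus strand): tttccgaaatACTTCCGGctcgggcgtc
Ndufa3 (YY1 motif, chr7:3617385-3617412, plus strand): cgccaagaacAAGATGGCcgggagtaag
Sdhd (ESRRA motif read on the opposite strand, chr9:50603800-50603823, minus strand): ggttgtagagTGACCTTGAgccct
The motif begins 42 bases before the start in Atp5g2 and 6 before it in Cox8a, whose promoter holds the motif at 2 places. In Ndufa3 and Sdhd it begins at base 23 and base 37 of the transcript. The change of these 4 genes was 0.16, 0.14, 0.23 and 0.21, and none of them passed.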

How the data were processed

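Colon RNA of 3 mutant and 3 control mice had been hybridised to Affymetrix arrays. The deposited values were log2 expression made by the authors with RMA, per the submitters' processing notes; no version or genome build was found in the labels. The table had 35557 rows. With 3 arrays in each group, that number sets the precision.

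Gene symbols came from GEO's annotation of the array (2016). Rows with 1 symbol were used (21789), and those with several (1621) or none (12147) were left out, 6 of them holding a member's symbol beside another. The highest-mean row stood for each gene. Of the 89 members, 17 had more than 1 row, and in 1 (Atp5l) a further row had the opposite sign, close to 0.

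Mutant was compared with control in limma 3.58.1 (R 4.3.3) by lmFit and eBayes, with a fixed effect for each litter. P-values were two-sided and adjusted by Benjamini-Hochberg across 19938 genes, and a gene passed under 0.05. The litter entered because the design text names the pairs as littermates; deviations of littermates correlated by 0.013, 0.0052 and 0.061 over genes. Errors are standard errors of this fit, and 2 residual degrees of freedom are joined by a prior of 5.85. The fit was also run on simulated data with independent noise around the fitted levels. Those data had no error shared between genes, so they cannot show whether the calls hold in the real data. The members and lists were chosen with earlier results of these data known, so lists are described by counts and medians without a test of the list. Named members were, in each complex, the 2 with the largest change above 0 and up to 2 with the largest below 0, and the restricted paralogs with their partners. From other lists up to 2 passing genes with the smallest p in each direction could be named, and not all are given here. Also named were the hedgehog genes, the subunits of mitochondrial DNA, Cycs, Cyc1 and 6 regulators. Any others were picked after their values were seen. Alternatives changed the litter term, variance prior, array weights, dim-gene filter, scaling, row choice and rows tested, or left out a litter. Protein sequences of the paralogs were not used here.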

Additional observations from a re-analysis of the deposited data

How the results depend on the processing

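Under the 12 alternatives run, 0 members rose in any, and 0 fell except under 2. With the litter as a random replicate block, 1 member fell (Ndufa4l2), and with array weights 1 fell (Ndufa4l2, at -0.34). The pairing by litter came from the design text; with no replicate block 0 members passed, the smallest adjusted p among members was 0.0604, and 274 genes rose and 364 fell. That p ran from 0.0346 to 0.306 over the alternatives, the member median from 0.0253 to 0.0670, and the members' litter count, where computed, from 21 to 33. Of all genes 512 rose and 734 fell with array weights. With all rows of the table, 1 rose and 1 fell, where 35557 rows were tested and the prior degrees of freedom were 3.01 (3761 had an unadjusted p under 0.05). Leaving out a litter gave 247 to 403 genes that rose and 299 to 484 that fell.

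Of the 41 members named by rule, 16 changed sign under some alternative, and the largest change among these was 0.104 in size. The cause was not tested. Members named for other reasons, such as Cox5a, Cox5b and Uqcr11, were not checked for a change of sign. With array weights Ndufs8 was at 0.0063, Uqcrc2 at 0.0035, Atp5g3 at 0.070, Cox8c at -0.024 and Cox6b1 at 0.026. Cox8c was at -0.020 with quantile normalization and at -0.0023 with median centring. Leaving out each litter in turn gave -0.048 to 0.029 for Ndufs8, -0.18 to 0.068 for Ndufb2, -0.13 to 0.026 for Uqcrc1 and -0.041 to 0.0081 for Uqcrc2. It gave -0.043 to 0.14 for Atp5e, -0.19 to 0.18 for Atp5g3, -0.020 to 0.15 for Cox6a2 and -0.0039 to 0.15 for Cox6b2. For Cox7b2 it gave -0.024 to 0.14, for Cox8c -0.037 to 0.089, for Ndufa4 -0.070 to 0.0096 and for Cox4i1 -0.0096 to 0.12. For Cox6a1 it gave -0.21 to 0.044, for Cox6b1 -0.068 to 0.059, for Cox7a2 -0.071 to 0.14 and for Cox7b -0.036 to 0.17.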
